A study of Mus musculus with 3 samples.

Results

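The 9 genes described here encode the core of triglyceride breakdown and the coat of the lipid droplet: the lipases Pnpla2, Lipe and Mgll, the lipase regulators Abhd5 and G0s2, and the droplet proteins Plin1, Plin2, Plin4 and Cidec. They were taken by symbol from the deposited gene table, where each name matched, and they make up 9 of 46951 loci. The mice were C57BL/6j males, their inguinal nodes gave the RNA, and each of 3 groups is represented by 1 library. In the 20(OH)D3 group the mice were injected with 20-hydroxyvitamin D3 (20(OH)D3), in the 25(OH)D3 group with 25-hydroxyvitamin D3 (25(OH)D3), both into the peritoneum at 4 µg/kg per day, and in the vehicle group with ethanol. Every group, vehicle included, had first been painted on the belly skin with dinitrofluorobenzene (DNFB), a contact sensitizer, 3 days before the injections began. The sample labels give 4 days of injections with the nodes taken 24 h after the last, while the series text gives 1 week. The 20(OH)D3 and 25(OH)D3 molecules are hydroxylated forms of vitamin D3 that differ in which side-chain carbon carries the hydroxyl group. How many animals went into each library and how old they were is not stated, and the labels name no batch.

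Fat is stored as triglyceride in droplets, and lipolysis releases it stepwise. PNPLA2 (adipose triglyceride lipase) removes the first fatty acid, LIPE (hormone-sensitive lipase) acts on the resulting diglyceride, and MGLL cleaves the last monoglyceride. ABHD5 (also called CGI-58) activates PNPLA2 and G0S2 inhibits it, while perilipins coat the droplet and gate access to it, and CIDEC promotes the growth of large droplets. These proteins are best known from adipocytes, and inguinal nodes lie embedded in the subcutaneous fat pad.

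Values are FPKM (fragments per kilobase of transcript, scaled to library size), which allow levels of different genes to be compared, and normalized counts. Ratios of normalized counts between libraries carry a 95% exact interval that covers the counting error alone and no spread between animals. These reads carry no molecular identifiers and so are not separate molecules, so the interval may be too narrow even for counting error. No group has a replicate, so differences could not be tested, no p-values are given, and the values are those of 3 libraries and not of the treatments. The depth, in reads worked back from the normalized counts, was 7522550 for the 20(OH)D3, 7991748 for the 25(OH)D3 and 8226431 for the vehicle library. All 9 genes passed a filter of a mean of at least 1 FPKM, as did 14032 loci. Both comparisons with vehicle use the same vehicle library, so they are not independent of each other.

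Across the 3 libraries the 9 genes stood highest with 20(OH)D3, with the exception of Plin2, whose FPKM was highest with 25(OH)D3. Their summed level was 1299 FPKM in the 20(OH)D3, 708 FPKM in the 25(OH)D3 and 451 FPKM in the vehicle library. The summed reads were 21225, 11624 and 8117 in the same libraries, or 0.282%, 0.145% and 0.0987% of all reads. The summed normalized counts were 2.93-fold (2.85 to 3.00) those of vehicle with 20(OH)D3 and 1.54-fold (1.49 to 1.58) with 25(OH)D3. In bulk tissue, fewer cells of a type and less RNA per cell cannot be told apart.

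The start regions of 4 genes are shown for their contrasting patterns: G0s2 and Cidec had the largest ratios of 20(OH)D3 to vehicle, Plin4 the largest ratio of 20(OH)D3 to 25(OH)D3, and Plin2 the smallest ratio of 20(OH)D3 to vehicle, with the order of the compounds in FPKM that made it the exception named above. Each window runs from 250 bases before to 50 bases after the annotated start (RefSeq, GRCm38.p6), 5′ to 3′ on the gene's own strand, which is the minus strand for all 4, and capitals mark matches to the motifs searched. The windows are chr1:193273139-193273438 for G0s2, chr6:113435711-113436010 for Cidec, chr17:56109733-56110032 for Plin4 and chr4:86670010-86670309 for Plin2.
G0s2: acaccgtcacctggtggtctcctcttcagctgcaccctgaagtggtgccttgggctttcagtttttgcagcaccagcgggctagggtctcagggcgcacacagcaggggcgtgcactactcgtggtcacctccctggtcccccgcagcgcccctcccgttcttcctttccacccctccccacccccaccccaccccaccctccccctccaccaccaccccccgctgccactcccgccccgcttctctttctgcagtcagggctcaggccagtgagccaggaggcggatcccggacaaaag
Cidec: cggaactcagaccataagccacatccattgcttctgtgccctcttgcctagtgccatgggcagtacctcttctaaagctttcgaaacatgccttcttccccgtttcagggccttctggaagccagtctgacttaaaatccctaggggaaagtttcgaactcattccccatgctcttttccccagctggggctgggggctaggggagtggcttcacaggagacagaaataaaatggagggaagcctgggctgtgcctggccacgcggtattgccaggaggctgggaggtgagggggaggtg
Plin4: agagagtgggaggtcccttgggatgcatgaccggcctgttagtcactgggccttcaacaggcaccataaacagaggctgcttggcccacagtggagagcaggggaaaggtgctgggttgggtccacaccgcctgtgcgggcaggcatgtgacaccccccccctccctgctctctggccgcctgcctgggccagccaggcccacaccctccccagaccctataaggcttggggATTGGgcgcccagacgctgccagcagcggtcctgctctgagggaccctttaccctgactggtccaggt
Plin2: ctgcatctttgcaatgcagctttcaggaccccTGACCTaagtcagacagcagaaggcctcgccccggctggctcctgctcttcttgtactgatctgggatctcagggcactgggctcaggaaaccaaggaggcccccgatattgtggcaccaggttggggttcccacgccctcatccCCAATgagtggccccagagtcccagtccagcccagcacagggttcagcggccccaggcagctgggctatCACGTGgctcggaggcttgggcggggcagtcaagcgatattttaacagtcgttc

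RefSeq gave 12 such windows for the 9 genes among 32817 in all, and 7 motifs were searched on both strands. AGGTCA, the single site bound by many nuclear receptors, lay in 16.3% of all windows and in those of Plin2 (position -218, minus strand) and Abhd5 (-69, minus strand). Its direct repeats, a pair of AGGTCA with N or with NNN between them, each hold AGGTCA as a part, and lay in 0.0396% (N) and 0.00609% (NNN) of all windows and in none of the 12. The E-box CACGTG lay in 7.15% of all windows and in those of Lipe (-155), Mgll (-44) and Plin2 (-4), where it spans the start. CCAAT lay in 37.4% of all windows and in those of Plin2 (-73) and Plin4 (-18, minus strand). TTGCGCAA, in 0.183% of all windows, and TATAAA, in 13.6%, had no match in the 12. The windows of G0s2 and Cidec thus hold no capitals, while that of Plin2 holds 3 matches. Cidec has 2 windows, of which only window 1 is printed, and the other had no match either. The windows of Pnpla2 and Plin1, not printed, also had no match. The G and C content of the 12 windows lay between 55.7% and 72.3%, against a median of 52.7% over all windows. A match is a stretch of letters and says nothing about binding, and these are exact spellings, so the lack of a match says only that those letters are not in the window.

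The lipases stood higher in both hydroxyvitamin libraries than in vehicle, and higher with 20(OH)D3 than with 25(OH)D3. Pnpla2, the lipase of the first step (chr7:141455198-141460743, plus strand), was at 346 FPKM with 20(OH)D3, 237 FPKM with 25(OH)D3 and 150.0 FPKM with vehicle. Its normalized counts were 2.37-fold (2.26 to 2.49) those of vehicle with 20(OH)D3 and 1.61-fold (1.53 to 1.69) with 25(OH)D3. Lipe, the hormone-sensitive lipase (chr7:25379527-25398710, minus strand), was at 137 FPKM with 20(OH)D3, 74.6 FPKM with 25(OH)D3 and 49.9 FPKM with vehicle. The order of the libraries was thus the same for the first and the next enzyme of the pathway. The Lipe ratio to vehicle was 2.75 (2.57 to 2.95) with 20(OH)D3 and 1.48 (1.37 to 1.60) with 25(OH)D3. Mgll, which releases glycerol from monoglyceride and also degrades the endocannabinoid 2-arachidonoylglycerol (chr6:88724412-88828360, plus strand), was at 64.3 FPKM with 20(OH)D3, 41.0 FPKM with 25(OH)D3 and 23.4 FPKM with vehicle. The Mgll ratio to vehicle was 2.84 (2.60 to 3.09) with 20(OH)D3 and 1.79 (1.63 to 1.96) with 25(OH)D3, with an interval that overlapped that of Lipe with 20(OH)D3 and that of Pnpla2 with 25(OH)D3. Set directly against 25(OH)D3, the 20(OH)D3 library had 1.47-fold (1.41 to 1.54) as much Pnpla2, 1.86-fold (1.75 to 1.98) as much Lipe and 1.59-fold (1.48 to 1.71) as much Mgll in normalized counts.

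The regulators parted from each other. Abhd5, the activator (chr9:122351608-122381524, plus strand), was at 23.0 FPKM with 20(OH)D3 (354 reads), 16.4 FPKM with 25(OH)D3 (267 reads) and 11.5 FPKM with vehicle (183 reads), the lowest level of the 9 genes in each library. Its ratio to vehicle was 2.16 (1.81 to 2.60) with 20(OH)D3 and 1.57 (1.29 to 1.90) with 25(OH)D3. G0s2, the inhibitor (chr1:193272161-193273217, minus strand), was at 133 FPKM with 20(OH)D3 (758 reads), 45.7 FPKM with 25(OH)D3 (270 reads) and 27.1 FPKM with vehicle (173 reads). Its ratio to vehicle of 4.90 (4.15 to 5.82) with 20(OH)D3 was the largest of the 9 genes, and rank 12 from the highest among the 14032 loci when 10 was added to the normalized counts. With 25(OH)D3 the G0s2 ratio was 1.67 (1.38 to 2.04), and 20(OH)D3 over 25(OH)D3 gave 2.93 (2.54 to 3.38).

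Within a library, the inhibitor was thus higher relative to its lipase with 20(OH)D3. The FPKM quotient of G0s2 to Pnpla2 was 0.384 with 20(OH)D3, 0.192 with 25(OH)D3 and 0.180 with vehicle. In reads, this quotient was 2.07-fold (1.74 to 2.47) that of vehicle with 20(OH)D3 and 1.04-fold (0.851 to 1.28) with 25(OH)D3. The quotient of Abhd5 to Pnpla2 was 0.0666 with 20(OH)D3, 0.0690 with 25(OH)D3 and 0.0764 with vehicle, and its read ratio to vehicle had intervals that held 1, at 0.913 (0.757 to 1.11) with 20(OH)D3 and 0.973 (0.798 to 1.19) with 25(OH)D3. G0s2 was not alone in standing higher relative to Pnpla2 with 20(OH)D3. In reads, the quotient to Pnpla2 was 1.16-fold (1.07 to 1.26) that of vehicle for Lipe, 1.20-fold (1.08 to 1.32) for Mgll and 1.35-fold (1.24 to 1.47) for Plin1. For Cidec and Plin4 this quotient was not computed, but their own count ratios of 20(OH)D3 to vehicle exceeded the 2.37 of Pnpla2. They were 4.54 (4.22 to 4.89) for Cidec, an interval inside that of G0s2 (4.15 to 5.82), and 3.45 (3.20 to 3.74) for Plin4. Abhd5 at 2.16 and Plin2 at 1.70 were below Pnpla2. These quotients describe messages and not lipase activity, which was not measured.

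**Figure D1:**
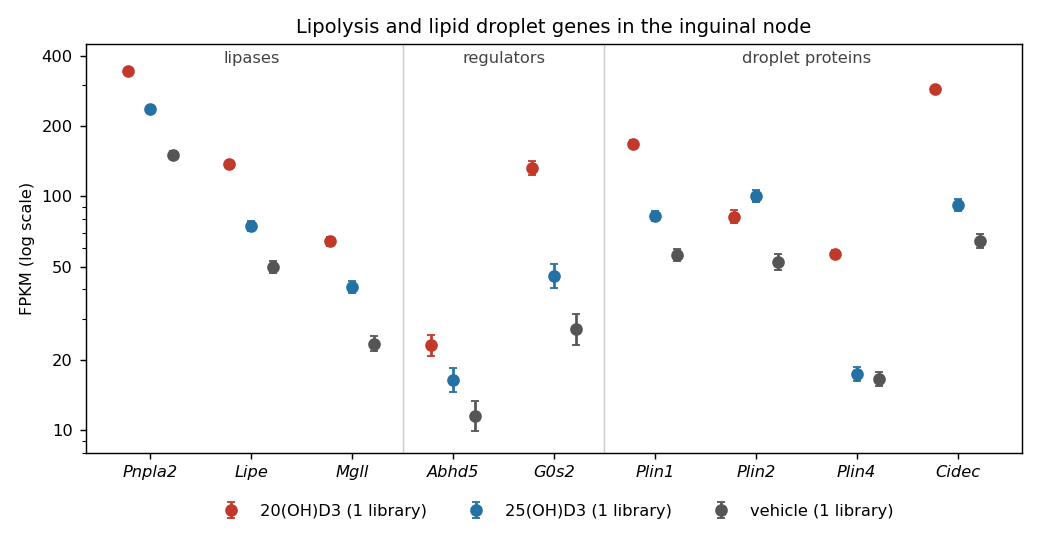
Level of each gene in FPKM (log axis) in the 20(OH)D3, 25(OH)D3 and vehicle libraries (1 library each), grouped by role, with bars for the 95% exact interval of counting error only. The 20(OH)D3 point is the highest for 8 genes, while for Plin2 it lies at 82.0 FPKM, below 101 FPKM with 25(OH)D3 and above 52.5 FPKM with vehicle.

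The droplet proteins held both the largest and the smallest differences between the 2 compounds. Plin1, the main perilipin of adipocytes (chr7:79720218-79732903, minus strand), was at 168 FPKM with 20(OH)D3, 82.7 FPKM with 25(OH)D3 and 56.1 FPKM with vehicle. For Plin1 the ratio to vehicle was 3.20 (2.99 to 3.44) with 20(OH)D3 and 1.55 (1.44 to 1.68) with 25(OH)D3, and 20(OH)D3 over 25(OH)D3 gave 2.06 (1.94 to 2.19). Cidec, the droplet fusion protein also known as FSP27 in mice (chr6:113424634-113435760, minus strand), was at 289 FPKM with 20(OH)D3, 92.1 FPKM with 25(OH)D3 and 64.4 FPKM with vehicle. Cidec was thus second only to Pnpla2 in the 20(OH)D3 library. The Cidec ratio to vehicle was 4.54 (4.22 to 4.89) with 20(OH)D3, rank 16 among the 14032 loci, and 1.43 (1.31 to 1.56) with 25(OH)D3. The ratio of 20(OH)D3 to 25(OH)D3 was 3.17 (2.97 to 3.39).

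Plin4, a perilipin abundant in white fat (chr17:56100591-56109803, minus strand), was at 57.0 FPKM with 20(OH)D3 (2637 reads), 17.4 FPKM with 25(OH)D3 (840 reads) and 16.5 FPKM with vehicle (854 reads). It was the member whose 25(OH)D3 level lay closest to vehicle, with a ratio of 1.06 (0.958 to 1.16), and its log2 ratio of 0.07 in FPKM turned to -0.08 after rescaling to TPM, which sets every library to the same FPKM total. With 20(OH)D3 the ratio to vehicle was 3.45 (3.20 to 3.74), and 20(OH)D3 over 25(OH)D3 gave 3.27 (3.03 to 3.54), rank 29 among the 14032 loci. Plin2, the perilipin found on droplets of most cell types, foamy macrophages among them (chr4:86648386-86670060, minus strand), had the opposite order of the compounds in FPKM. It was at 82.0 FPKM with 20(OH)D3 (991 reads), 101 FPKM with 25(OH)D3 (1081 reads) and 52.5 FPKM with vehicle (651 reads). Against vehicle the Plin2 ratio was 1.70 (1.54 to 1.88) with 20(OH)D3 and 1.78 (1.62 to 1.97) with 25(OH)D3. Between the compounds the FPKM ratio was 0.815, while the normalized count ratio was 0.956 (0.876 to 1.04), an interval that holds 1. The Plin2 log2 ratio of 20(OH)D3 to 25(OH)D3 was below 0 under each scaling tried, between -0.33 and -0.06.

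The make-up of the droplet coat messages differed accordingly. The FPKM quotient of Plin2 to Plin1 was 0.489 with 20(OH)D3, 1.22 with 25(OH)D3 and 0.935 with vehicle. In reads this quotient was 0.532-fold (0.470 to 0.601) that of vehicle with 20(OH)D3 and 1.15-fold (1.01 to 1.30) with 25(OH)D3. For Plin4 to Plin1 the FPKM quotient was 0.340 with 20(OH)D3, 0.211 with 25(OH)D3 and 0.294 with vehicle, with read ratios to vehicle of 1.08 (0.971 to 1.20) and 0.679 (0.599 to 0.769) for 20(OH)D3 and 25(OH)D3. The 25(OH)D3 library was thus low in Plin4 relative to Plin1, and the 20(OH)D3 library was low in Plin2 relative to Plin1. For Cidec to Plin1 it was 1.72 with 20(OH)D3, 1.11 with 25(OH)D3 and 1.15 with vehicle, and the read ratio to vehicle was 1.42 (1.28 to 1.57) with 20(OH)D3 and 0.922 (0.819 to 1.04) with 25(OH)D3.

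**Figure D2:**
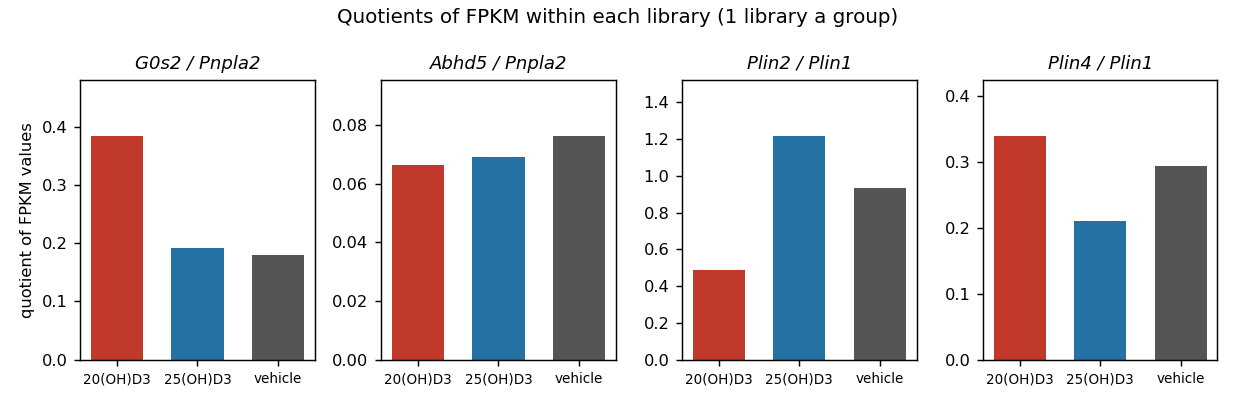
Quotients of FPKM values within the 20(OH)D3, 25(OH)D3 and vehicle libraries (bars from 0, 1 library each) for G0s2 over Pnpla2, Abhd5 over Pnpla2, Plin2 over Plin1 and Plin4 over Plin1. The G0s2 bar is tallest with 20(OH)D3 at 0.384, and the Plin2 bar is tallest with 25(OH)D3 at 1.22.

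Within each library Pnpla2 had the highest level per length and Abhd5 the lowest, 15.0-fold apart with 20(OH)D3, 14.5-fold with 25(OH)D3 and 13.1-fold with vehicle. With 20(OH)D3 the order by FPKM was Pnpla2, Cidec, Plin1, Lipe, G0s2, Plin2, Mgll, Plin4 and Abhd5, and of neighbours only Lipe and G0s2 had overlapping counting intervals. With 25(OH)D3 it was Pnpla2, Plin2, Cidec, Plin1, Lipe, G0s2, Mgll, Plin4 and Abhd5, where Plin2 and Cidec, G0s2 and Mgll, and Plin4 and Abhd5 overlapped. With vehicle it was Pnpla2, Cidec, Plin1, Plin2, Lipe, G0s2, Mgll, Plin4 and Abhd5, where Plin1, Plin2 and Lipe overlapped in turn, as did G0s2 and Mgll. The order was therefore much alike, with Plin2 moving most between libraries. The lipases made up 42.1% of the summed FPKM with 20(OH)D3, 49.9% with 25(OH)D3 and 49.5% with vehicle. The droplet proteins made up 45.9%, 41.4% and 42.0% in the same libraries, and the regulators 12.0%, 8.76% and 8.53%.

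Counted against all loci, 7 of 9 genes were at least 2-fold higher with 20(OH)D3 than with vehicle on log2(FPKM + 1), where 4.42% of the 14032 loci were, and none was 2-fold lower, where 1.13% of loci were. A fold on this scale understates the difference of low genes. Adding 10 to the normalized counts in place of 1 FPKM gave 8 of 9, with Abhd5 added, where 2.98% of loci passed, and again none 2-fold lower, where 0.221% of loci were. Over all loci, 620 stood 2-fold higher and 159 lower, and these became 522 and 295 after rescaling to TPM and 418 and 31 on normalized counts. The median log2 ratio of the 9 genes was 1.44, from 0.63 for Plin2 to 2.25 for G0s2, and that of all loci -0.01. With 25(OH)D3 none of the 9 genes was 2-fold higher than with vehicle, where 1.35% of loci were on FPKM and 0.499% on normalized counts, and none was 2-fold lower, where 1.02% and 0.214% of loci were. Over all loci, 190 stood 2-fold higher and 143 lower, which became 188 and 249 after rescaling to TPM and 70 and 30 on normalized counts. The median of the 9 genes was 0.57, from 0.07 for Plin4 to 0.93 for Plin2, and that of all loci 0.03. Rescaling to TPM shifted the median of all loci to -0.18 for 20(OH)D3 and -0.12 for 25(OH)D3 against vehicle, and the 9 genes then had medians of 1.26 and 0.42. Relative to the median of all loci, the 9 genes stood at 1.45 with 20(OH)D3 and 0.54 with 25(OH)D3 as deposited, and at 1.44 and 0.53 after rescaling.

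The comparison of the 2 compounds was a single pair at the same dose and time, with no test possible. G0s2, Plin1, Plin4 and Cidec were at least 2-fold higher with 20(OH)D3 than with 25(OH)D3, 4 of 9 genes, where 3.2% of loci were on FPKM and 1.95% on normalized counts. None was 2-fold lower, where 1.22% of loci were on FPKM and 0.335% on normalized counts. Over all loci 449 stood 2-fold higher and 171 lower, or 273 and 47 on normalized counts. Plin1 lay at the threshold, with a log2 ratio of 1.01, and dropped below it after rescaling to TPM or with 5 FPKM added. The median log2 ratio of the 9 genes was 0.87, against -0.02 for all loci. Plin2 and the lipases thus differed less between the compounds than Cidec, Plin4 and G0s2 did.

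**Figure D3:**
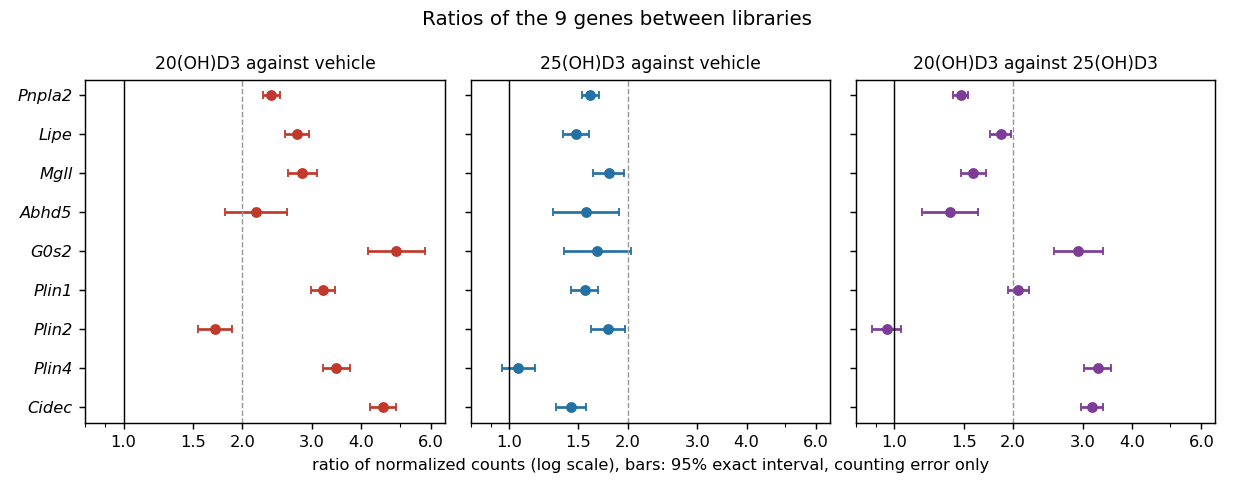
Ratio of normalized counts for each gene (log axis) in 20(OH)D3 against vehicle, 25(OH)D3 against vehicle and 20(OH)D3 against 25(OH)D3, with bars for 95% exact intervals of counting error only, a solid line at 1 and a dashed line at 2. G0s2 at 4.90 and Cidec at 4.54 lie farthest right in the first panel, and Plin2 at 0.956 lies left of 1 in the last.

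Most markers of adipocytes stood higher than with vehicle along with the 9 genes, though with 25(OH)D3 some did not. The 12 markers, of which none was at 0 reads in any library, summed to 7117 FPKM with 20(OH)D3, 2714 FPKM with 25(OH)D3 and 1554 FPKM with vehicle, or 0.844%, 0.350% and 0.209% of reads. Of the 12, 9 were at least 2-fold higher with 20(OH)D3 and 1 with 25(OH)D3 than with vehicle, none was 2-fold lower, and the medians were 1.75 and 0.73. Normalized counts with 10 added gave 10 and 2 markers at least 2-fold higher. Of all loci, 4.42% and 1.35% were so on log2(FPKM + 1), and 2.98% and 0.499% on normalized counts. Adipoq, the adipokine adiponectin, was at 471 FPKM with 20(OH)D3, 175 FPKM with 25(OH)D3 and 107 FPKM with vehicle. The count ratios of the markers to vehicle ran from 1.08 for Nrip1, a nuclear receptor corepressor, to 5.91 for Cfd, the adipocyte protease adipsin, with 20(OH)D3, around a median of 3.40. With 25(OH)D3 they ran from 0.700 for Sncg to 2.47 for Adig, around a median of 1.66. Of the 12 markers, 11 had intervals above 1 and 0 below with 20(OH)D3. With 25(OH)D3, 7 had intervals above 1 and 2 below, against 8 and 0 of the 9 genes. Lep, the adipokine leptin, was at 13.1 FPKM with 20(OH)D3, 4.70 FPKM with 25(OH)D3 and 4.72 FPKM with vehicle. All 9 genes lay inside the markers' range in both comparisons with vehicle, and 3 of 9 lay above the markers' median in each. Between 20(OH)D3 and 25(OH)D3 the markers ran from 1.16 for Tmem120b to 6.18 for Sncg, and 8 of 9 genes lay inside, Plin2 being below.

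Taken per read of the summed adipocyte markers, most of the 9 genes were lower with 20(OH)D3 than with vehicle. The quotients relative to vehicle ran from 0.413 (0.373 to 0.458) for Plin2 to 1.19 (1.01 to 1.41) for G0s2, and Cidec was at 1.10 (1.02 to 1.19). The other 7 genes had intervals below 1, Pnpla2 at 0.575 (0.546 to 0.605) and Plin1 at 0.777 (0.723 to 0.835) among them. Cfd and Car3 gave most of the marker reads, and without Cfd 6 genes had intervals below 1, with Plin4 at 0.973 (0.899 to 1.06). Car3, with 28901 of the 63464 marker reads with 20(OH)D3, was kept in both sums, and a sum without Car3 was not taken. With Adipoq alone as the divisor, no gene had an interval above 1 and the G0s2 quotient was 1.11 (0.931 to 1.34), while Plin2 was at 0.387 (0.343 to 0.437). For 25(OH)D3 relative to vehicle, 5 genes had intervals below 1, the lowest being Plin4 at 0.606 (0.550 to 0.669), and 4 held 1. With Adipoq alone as the divisor, 2 had intervals below 1 and 7 held 1, so the count depends on the divisor, as it did with 20(OH)D3. The part of the adipocyte markers in the result was not tested.

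**Figure D4:**
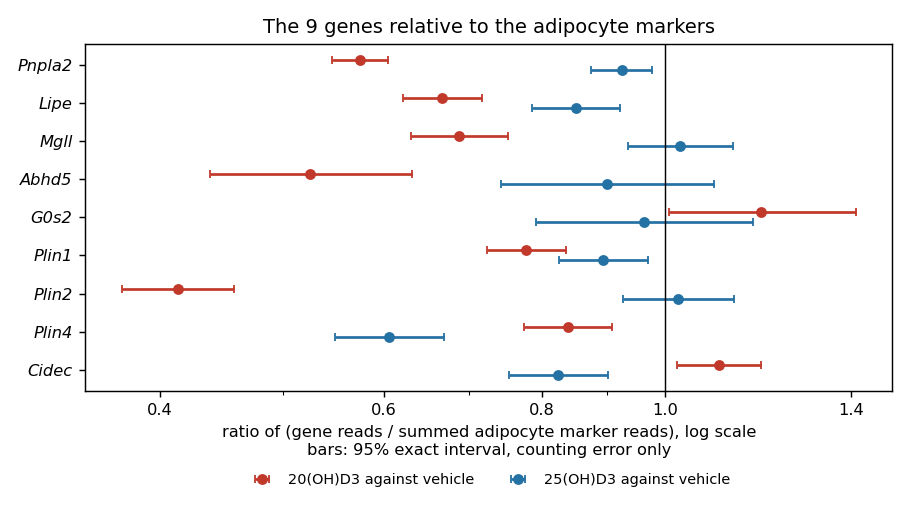
Reads of each gene per read of the summed 12 adipocyte markers, as a ratio of 20(OH)D3 to vehicle and of 25(OH)D3 to vehicle (log axis), with bars for 95% exact intervals of counting error only. With 20(OH)D3, G0s2 at 1.19 and Cidec at 1.10 lie right of 1 and Plin2 at 0.413 lies farthest left, while with 25(OH)D3 Plin4 at 0.606 does.

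Markers of other cell types differed in pattern. Beside their counts, 4.42% of all loci with 20(OH)D3 and 1.35% with 25(OH)D3 were 2-fold higher than vehicle on log2(FPKM + 1). The shares 2-fold lower were 1.13% and 1.02%, and 1.22% for 20(OH)D3 against 25(OH)D3. Brown and beige fat markers summed to 480 FPKM with 20(OH)D3, 432 FPKM with 25(OH)D3 and 92.0 FPKM with vehicle, and 3 of 5 that passed the filter were 2-fold higher than vehicle with 20(OH)D3 and 4 of 5 with 25(OH)D3. Between the compounds the ratio of their summed counts was 1.04 (0.962 to 1.12), a sum carried by Ucp1 and Cox8b, while Elovl3 (9 reads with 20(OH)D3, 27 with 25(OH)D3) and Dio2 (17 and 46 reads) were lower with 20(OH)D3, at 0.348 (0.144 to 0.761) and 0.385 (0.207 to 0.685). The sums hold all 7 markers, including Dio2 and Ppargc1a, which did not pass the filter. Ppargc1a had 63 reads with 20(OH)D3 and 56 with 25(OH)D3. Ucp1, the uncoupling protein, was at 44.3 FPKM with 20(OH)D3, 44.8 FPKM with 25(OH)D3 and 12.4 FPKM with vehicle, and Cox8b, a respiratory subunit of brown fat and muscle, had a ratio to vehicle of 5.64 (4.58 to 6.99) with 20(OH)D3 and 4.81 (3.90 to 5.98) with 25(OH)D3. Macrophage markers summed to 1027 FPKM with 20(OH)D3, 620 FPKM with 25(OH)D3 and 599 FPKM with vehicle, and 1 of 9 that passed was 2-fold higher with 20(OH)D3, the complement gene C1qb, and none with 25(OH)D3. Lymphocyte markers summed to 2131 FPKM with 20(OH)D3, 2542 FPKM with 25(OH)D3 and 2340 FPKM with vehicle, and none of 10 was 2-fold apart in any comparison. Their median log2 ratio was -0.35 for 20(OH)D3 against vehicle. Fibroblast and vessel markers summed to 311 FPKM with 20(OH)D3, 232 FPKM with 25(OH)D3 and 231 FPKM with vehicle, with Lum and Dpt of 9 at least 2-fold higher with 20(OH)D3 and none with 25(OH)D3. Normalized counts with 10 added gave 3 of 9 with 20(OH)D3, adding Col3a1, and again none with 25(OH)D3. Skeletal muscle markers were near absent at 6.39 FPKM, 17.1 FPKM and 13.8 FPKM with 20(OH)D3, 25(OH)D3 and vehicle. Myh1 and Myh4 were at 0 reads in all 3 libraries. Of 2 that passed the filter, 1 was 2-fold lower on log2(FPKM + 1) in each comparison, though not always the same gene. Mylpf was lower with 20(OH)D3 (8 reads) than with vehicle (20) and 25(OH)D3 (27). Tnnt3 was lower with 25(OH)D3 (9 reads) than with vehicle (24). Normalized counts with 10 added gave none 2-fold lower than vehicle. The T cell gene Cd3e, at 79.2 FPKM with 20(OH)D3, 136 FPKM with 25(OH)D3 and 112 FPKM with vehicle, and the B cell gene Cd79a, at 715, 743 and 656 FPKM in the same libraries, were among the lymphocyte markers present in all 3 libraries labelled as lymph node. The part of these cell types in the values of the 9 genes was not tested.

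The pathway around the 9 genes was covered by 8 lists of 87 genes, of which 81 passed the filter. Of these, 27 were at least 2-fold higher with 20(OH)D3 and 7 with 25(OH)D3 than with vehicle, 10 were so with 20(OH)D3 against 25(OH)D3, and none was 2-fold lower in any of the 3 comparisons. These and the list counts that follow are on log2(FPKM + 1), which understates low genes, and normalized counts with 10 added gave 31, 8 and 12. Over the 14032 loci, the shares 2-fold higher in these comparisons were 4.42%, 1.35% and 3.2%, or 2.98%, 0.499% and 1.95% on normalized counts. The shares 2-fold lower were 1.13%, 1.02% and 1.22% on log2(FPKM + 1). The median log2 ratios were 0.50, 0.29 and 0.24 in that order of comparisons.

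Upstream, receptors showed single genes far above vehicle with 20(OH)D3. Of 4 receptors that drive lipolysis and passed the filter, 1 was 2-fold higher with 20(OH)D3, the fat-enriched beta-adrenergic receptor Adrb3, at 38.7 FPKM against 14.8 FPKM with 25(OH)D3 and 11.4 FPKM with vehicle, and none was with 25(OH)D3. Normalized counts gave 2 of 4 with 20(OH)D3, adding the thyrotropin receptor Tshr, which had the largest count ratio of the list at 5.35 (3.19 to 9.44), on 86 reads with 20(OH)D3 and 18 with vehicle. Of 7 receptors that restrain lipolysis, 1 was 2-fold higher with 20(OH)D3, the lactate receptor Hcar1 at 12.7 FPKM, against 3.88 FPKM with 25(OH)D3 and 3.57 FPKM with vehicle, and none was with 25(OH)D3. The plain count ratios of Adora1 and Ptger3, receptors for adenosine and prostaglandin E, were also over 2-fold with 20(OH)D3, at 2.28 (1.81 to 2.87) and 2.24 (1.41 to 3.63). Hcar1, like Plin4, was thus near its vehicle level in the 25(OH)D3 library, with a count ratio of 1.08 (0.817 to 1.44). Of 15 genes of cAMP and insulin signalling, 2 were 2-fold higher with 20(OH)D3 and none with 25(OH)D3. The inhibitory G protein subunit Gnai1 was at 8.36 FPKM with 20(OH)D3, 2.39 FPKM with 25(OH)D3 and 2.00 FPKM with vehicle. Prkar2b, the protein kinase A regulatory subunit abundant in fat, was at 56.0 FPKM with 20(OH)D3, 47.1 FPKM with 25(OH)D3 and 24.5 FPKM with vehicle. The list as a whole lay near all loci, with medians of 0.19 for 20(OH)D3 and -0.05 for 25(OH)D3 against vehicle.

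Other lipases gave 4 of 10 genes 2-fold higher with 20(OH)D3 and 1 with 25(OH)D3. With 20(OH)D3, 5 of the 10 had count ratio intervals above 1 and 1 below, with Pnpla7 lowest at 0.736 of vehicle. Ces1d, a carboxylesterase with triglyceride hydrolase activity, was at 160 FPKM with 20(OH)D3, 69.2 FPKM with 25(OH)D3 and 39.8 FPKM with vehicle. Pnpla3, the closest paralogue of Pnpla2, was at 25.4 FPKM with 20(OH)D3, 19.5 FPKM with 25(OH)D3 and 7.51 FPKM with vehicle. Its ratio to vehicle of 2.59 (2.27 to 2.97) with 25(OH)D3 was thus above the 1.61 of Pnpla2. Lpl, which releases fatty acids from lipoproteins at the vessel wall, was at 448 FPKM with 20(OH)D3, 259 FPKM with 25(OH)D3 and 137 FPKM with vehicle.

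Among 13 other droplet proteins that passed, 5 were 2-fold higher with 20(OH)D3 and 2 with 25(OH)D3. Cidea, the relative of Cidec found in brown fat, was at 77.0 FPKM with 20(OH)D3, 125 FPKM with 25(OH)D3 and 28.4 FPKM with vehicle. It was lower with 20(OH)D3 than with 25(OH)D3, at a count ratio of 0.619 (0.560 to 0.683). The FPKM quotient of Cidea to Cidec was 0.267 with 20(OH)D3, 1.36 with 25(OH)D3 and 0.441 with vehicle, which in reads was 0.596-fold (0.506 to 0.704) that of vehicle with 20(OH)D3 and 3.06-fold (2.59 to 3.60) with 25(OH)D3. Plin5, the perilipin of oxidative tissue, was at 4.27 FPKM with 20(OH)D3, 4.82 FPKM with 25(OH)D3 and 1.55 FPKM with vehicle, with ratios to vehicle of 2.75 (1.72 to 4.53) and 3.09 (1.96 to 5.04) for 20(OH)D3 and 25(OH)D3. The perilipins therefore differed in kind of pattern, since Plin3, the most widely expressed of them, was at 20.4 FPKM with 20(OH)D3, 21.7 FPKM with 25(OH)D3 and 19.3 FPKM with vehicle, with both intervals of its ratio to vehicle holding 1. Fitm1 was at 0 reads in all 3 libraries.

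Of 12 triglyceride synthesis genes, 4 were 2-fold higher with 20(OH)D3 and 1 with 25(OH)D3. Agpat2, an acyltransferase needed for fat formation, was at 184 FPKM with 20(OH)D3, 157 FPKM with 25(OH)D3 and 67.4 FPKM with vehicle, and the final acyltransferases Dgat1 and Dgat2 had ratios to vehicle of 2.30 (2.02 to 2.63) and 2.19 (2.04 to 2.34) with 20(OH)D3. Some genes for the synthesis of triglyceride thus stood higher in the same library as those for its breakdown. Not all did: with 20(OH)D3, 8 of the 12 had count ratio intervals above 1 and 1 below, with Lpin2 lowest at 0.765 of vehicle. With 25(OH)D3, 5 had intervals above 1 and 1 below, with Gpam lowest at 0.531 of vehicle. Of 12 carriers and users of lipolysis products, 6 were 2-fold higher with 20(OH)D3 and 2 with 25(OH)D3, among them the fatty acid carrier Fabp4 at 3461 FPKM with 20(OH)D3, 2007 FPKM with 25(OH)D3 and 877 FPKM with vehicle. The glycerol channel Aqp7 had the largest count ratios to vehicle of that list, 4.52 (3.27 to 6.37) with 20(OH)D3 and 2.92 (2.08 to 4.17) with 25(OH)D3. Of 8 transcription factors of fat, 4 were 2-fold higher with 20(OH)D3 and 1 with 25(OH)D3. Pparg, the master regulator of adipocyte formation and an activator of several of the 9 genes, was at 31.7 FPKM with 20(OH)D3 (433 reads), 20.0 FPKM with 25(OH)D3 (280 reads) and 6.60 FPKM with vehicle (99 reads). The Pparg ratio to vehicle was 4.89 (3.93 to 6.15) with 20(OH)D3 and 3.03 (2.40 to 3.86) with 25(OH)D3, and with 25(OH)D3 none of the 9 genes had one as large. Cebpa was at 115 FPKM with 20(OH)D3, 47.4 FPKM with 25(OH)D3 and 32.8 FPKM with vehicle.

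**Figure D5:**
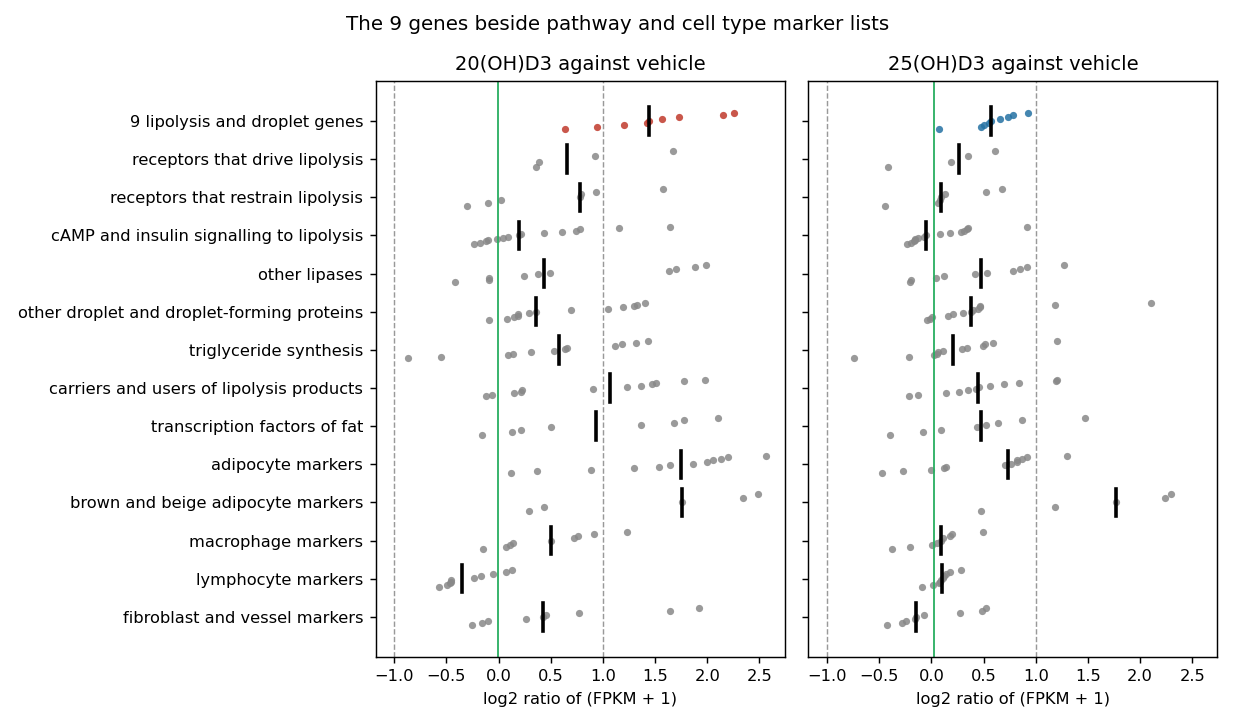
Log2 ratio of (FPKM + 1) against vehicle for the 9 genes (coloured) and the pathway and marker lists (grey, genes that passed the filter), for 20(OH)D3 and 25(OH)D3. The skeletal muscle markers are not drawn. Black bars mark list medians, a green line the median of all loci and dashed lines 2-fold. The 9 genes have medians of 1.44 with 20(OH)D3 and 0.57 with 25(OH)D3, beside 1.75 and 0.73 for the adipocyte markers.

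The loci whose 2 count ratios to vehicle lay nearest to the median of the 9 genes (2.84-fold with 20(OH)D3 and 1.57-fold with 25(OH)D3) were, among 9573 candidates and over 3 libraries, Mrap, Rps27rt, Bnip3, Epb41l4aos and Eif4ebp1, at distances of 0.03 to 0.08 on the log2 scale. Mrap, an accessory protein of the melanocortin receptor for ACTH, had ratios of 2.79 with 20(OH)D3 and 1.59 with 25(OH)D3. Rps27rt is a near copy of a ribosomal protein gene, so its reads are uncertain. Reads of 4 of the 9 genes could in part belong to a gene on the other strand whose exons overlap theirs, since it is not stated whether counting used strand. For Plin4 the neighbour Hdgfl2 had 302 reads with 20(OH)D3, 474 with 25(OH)D3 and 569 with vehicle, a ratio to vehicle of 0.594 and 0.894 for 20(OH)D3 and 25(OH)D3. For Abhd5 the neighbour A730085K08Rik had 115, 87 and 54 reads in the same order of libraries, and its ratios of 2.38 and 1.73 were near those of Abhd5. The neighbours of Lipe and Mgll had at most 25 reads in any library.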

How the data were processed

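Libraries came from inguinal nodes of male mice, 1 per group; female samples were not analysed here. The deposited table gives, per the file headers, FPKM and a normalized count signal for each locus. Per the submitters' processing notes, the tools were STAR 2.7.0c, Cufflinks 2.2.1, Cuffdiff and Cuffnorm with GRCm38; their settings, the annotation release and any use of strand are not stated in these notes or headers. The 2 empty lines were dropped.

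Low values of the authors' normalized count signal are whole multiples of 1.05 in the 20(OH)D3, 1.01 in the 25(OH)D3 and 0.938 in the vehicle library; dividing by these steps gave reads within 0.02 of whole numbers for 99.9% of values. The 25(OH)D3 step is so near 1 that its recovery is less certain. With 1 library a group no count model was fitted. Levels were compared as log2(FPKM + 1) over loci whose mean reached 1 FPKM, and as normalized count ratios with exact 95% intervals (Clopper-Pearson, conditional on the summed reads). Depth was 7522550 to 8226431 reads. The procedure was tested on data simulated with counting error alone, which is the error that the interval assumes. The simulated data held no spread between animals and no repeat reads of a molecule, so the test says nothing about either. Gene positions are from GENCODE M21 (GRCm38) and start windows from RefSeq.

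The 9 genes and all lists were chosen with earlier results of these data known. Named were the 9 genes, the extremes of each list, list genes at least 2-fold apart with a mean of at least 5 FPKM, Adipoq, Pparg, Plin3, Plin5 and Cidea, and the 5 nearest loci (mean of at least 5 FPKM and 100 reads); not every gene that met this is printed. Cd3e, Cd79a, Tshr, Adora1, Ptger3, Dio2, Ppargc1a and genes at 0 were named after their values were seen. Of the list symbols, 2 were found by an older symbol and 1 was not analysed here. Alternatives were pseudocounts of 0.1 and 5 FPKM, no filter or 5 FPKM, rescaling (to TPM, to the upper quartile, or by medians of ratios), normalized counts with 10 added, and 3-fold. Python 3.11.15, pandas 2.3.3, NumPy 2.4.6, SciPy 1.17.1 and matplotlib 3.10.9 were used. Protein sequence features had been planned and were not analysed here.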

Additional observations from a re-analysis of the deposited data

How the results depend on the processing

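Of 54 alternative values for the counts and medians of the 9 genes, 48 stayed within the allowed margin and 6 moved beyond it. The margin was a set fold for counts, and for log2 ratios it was taken from the width of the counting intervals. None of the medians changed sign, while a count of genes has no direction to change. Rescaling to TPM gave medians of 1.26 for 20(OH)D3 and 0.42 for 25(OH)D3 against vehicle, as the median of all loci shifted with it. At 3-fold, 3 genes were higher with 20(OH)D3 than with vehicle and 2 than with 25(OH)D3. The share of all loci past 3-fold was not computed, so these counts have no background beside them. Leaving out the 4 genes that overlap a gene on the other strand, an alternative chosen after seeing the data, gave medians of 1.56 for 20(OH)D3 against vehicle and 1.01 for 20(OH)D3 against 25(OH)D3 over the 5 genes left. For single genes, 143 of 162 alternative values stayed within the margin. Only Plin4 with 25(OH)D3 against vehicle changed sign, to -0.08 with TPM. Over all loci, the number 2-fold higher ran from 272 to 905 around 620 for 20(OH)D3 against vehicle, from 61 to 359 around 190 for 25(OH)D3 against vehicle, and from 139 to 711 around 449 for 20(OH)D3 against 25(OH)D3. No paired analysis was possible because each group has 1 library. Depth limits Abhd5 and G0s2 most, at 183 and 173 reads with vehicle, and the spread between animals is unknown.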
